A study of Mus musculus with 22 samples.

Results

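The comparison described here sets the 3 liver RNA-seq libraries of mice on CDA-HFD killed at zeitgeber time (ZT) 18 against the 3 libraries of mice on chow killed at that time, across all genes. These 6 of 22 libraries were taken by their titles, and the other 16 (9 diet and 7 control, at ZT0, ZT6 and ZT12) served to test what differed at ZT18. CDA-HFD is a high-fat diet of defined amino acids that lacks choline and gives steatohepatitis with fibrosis, and ZT18 is the middle of the dark phase, when mice feed and move (lights went on at ZT0 and off at ZT12). Per the labels, all mice were 20 weeks old, the diet began at 8 weeks and lasted 12 weeks, and the cells are called HSC, the usual short form of hepatic stellate cells. A field on the diet samples gives 6 months of diet instead, so its length is not settled. The sources used here do not give strain, sex, genotype or the way the cells were isolated, and no label names further treatment.

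In the liver the molecular clock runs as a loop. CLOCK and BMAL1 (gene Arntl) drive the period and cryptochrome genes, whose proteins block them, and the nuclear receptors REV-ERB alpha and beta (Nr1d1, Nr1d2) repress Arntl. DBP, TEF and HLF then activate genes through the D-box, and NFIL3 represses them. Stellate cells store retinoids and lay down scar collagen, sinusoidal endothelial cells line the blood channels, and Kupffer cells are the resident macrophages.

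The 6 libraries held 24471404 to 34975379 counts in genes, and 22409 of 55367 listed genes were tested. The first principal component, with 40.2% of the variance, put the diet libraries of ZT18 at 81.6 to 91.5 and the control libraries at -95.8 to -107.7. Replicate 1 of control ZT18 lay apart on the second component (6.45% of the variance) at 110.1, against 28.9 and 34.6 for the other 2, and replicate 2 of control ZT0 lay nearest to the diet libraries on the first, at -46.6. Whether every library is a separate animal is not labelled, and p-values then reflect only how these samples vary, perhaps for technical reasons. Values are CPM, counts scaled to a common library size, with TMM factors, rounded to 3 significant digits. Because CPM is not divided by gene length, no order between genes is drawn from it.

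The markers of stellate cells were low. Lrat, which makes retinyl esters, was at 0.642, 2 and 3.65 CPM in diet libraries and at 3.16, 1.53 and 1.74 CPM in control libraries. Reln, a secreted stellate marker, had 1.96, 2.87 and 2.26 CPM in diet libraries and 0.333, 2.84 and 3.49 CPM in control libraries, and the filament gene Des had 4.63, 8.5 and 5.84 CPM in diet libraries and 8.7, 6.23 and 5.92 CPM in control libraries. The groups overlapped for all 3 genes. The 20 stellate markers together held 319 to 348 CPM in diet libraries and 664 to 1036 CPM in control libraries, and the 28 endothelial markers held 2751 to 3760 CPM in diet libraries and 47161 to 49846 CPM in control libraries. The libraries are therefore called by their labels below, with no claim that stellate cells gave most of the RNA. In such bulk samples fewer cells of a type and less RNA per cell cannot be told apart.

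**Figure D1:**
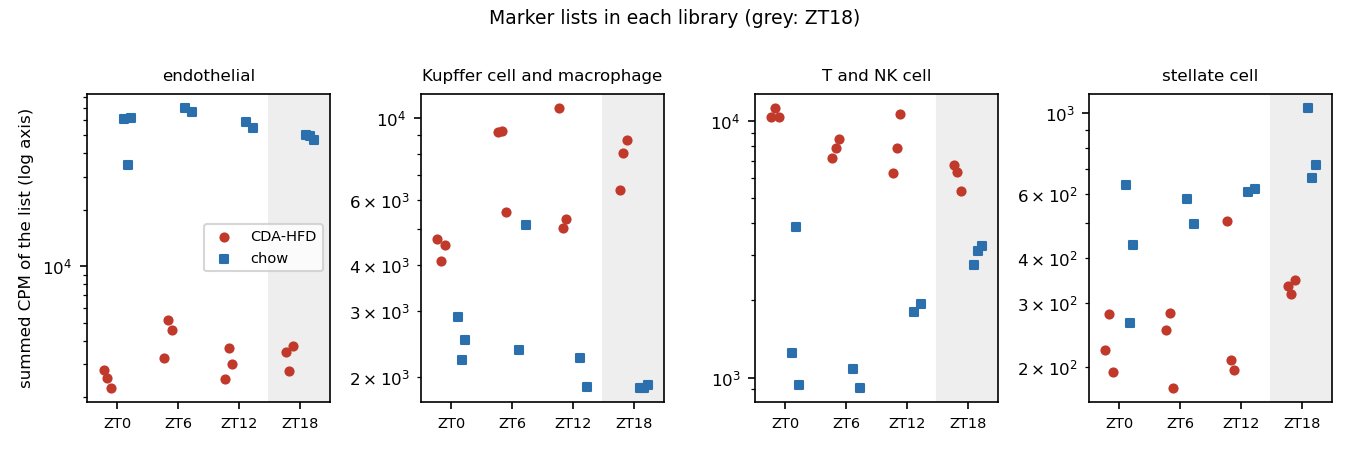
Summed CPM of 4 marker lists in each of the 22 libraries (log axis), by zeitgeber time, with CDA-HFD in red to the left of chow in blue; each point is 1 library and ZT18 is shaded. At ZT18 the endothelial sum was 2751 to 3760 CPM under the diet and 47161 to 49846 CPM on chow, and the T and NK cell sum was 5330 to 6755 CPM under the diet and 2757 to 3262 CPM on chow.

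At ZT18 the diet libraries differed from control in 6916 genes, 30.9% of those tested (edgeR quasi-likelihood test, Benjamini-Hochberg adjusted p under 0.05, the rule behind every call below). Of these, 3436 were higher (15.3%) and 3480 lower (15.5%), and 2237 higher (9.98%) and 2200 lower (9.82%) changed by over 2-fold. The shares of 15.3% and 15.5% are the background for the list counts at ZT18 given below. The 3 diet libraries lay above all 3 control libraries in 5074 genes (22.6%) and below them in 4681 (20.9%). The median log2 change over all genes tested was 0.030. At the other times the diet effect was called in 6719 genes at ZT0 (30%), 6752 at ZT6 (30.1%) and 6641 at ZT12 (29.6%). Of the ZT18 calls, 1510 higher and 2257 lower genes were called in the same direction at all 3 other times. Another 1126 were called in the same direction at none of the other times, 24 of them in the opposite direction at 1 or more, and 37 of the 1126 differed when ZT18 was tested against the other times.

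**Figure D2:**
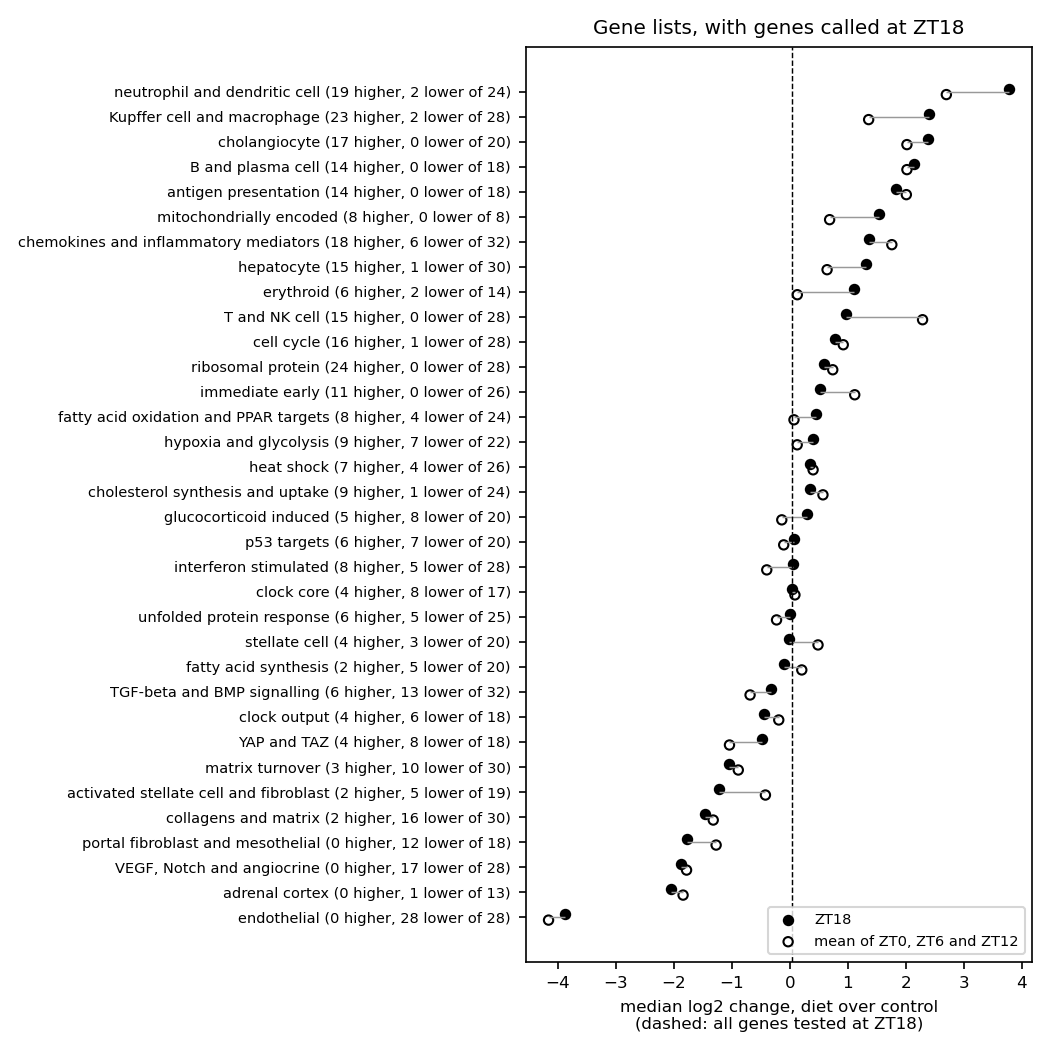
Median log2 change, diet over control, of 34 gene lists at ZT18 (filled) and as the mean of ZT0, ZT6 and ZT12 (open), with the numbers of genes called at ZT18; the dashed line is the median of all genes tested at ZT18. The endothelial list had the lowest median at ZT18 (-3.87) and the neutrophil and dendritic cell list the highest (3.78).

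Endothelial and blood vessel genes were lower under the diet. All 28 endothelial markers fell, with a median log2 change of -3.87. Kdr, the main receptor for vascular endothelial growth factor (chromosome 5, 75932827 to 75978458, GRCm38), had 142, 106 and 161 CPM in diet libraries and 2660, 2830 and 2780 CPM in control libraries, a log2 change of -4.34 ± 0.21 (SE). The groups stood far apart, and the same holds for the genes that follow. Those named for the largest changes, Kdr, Wnt2, Bmp6, F8, Cldn5, Ackr4 and Kcnj15, were chosen only among genes whose groups do not overlap. Wnt2, a signal from vessels near the central vein to hepatocytes, had 20.4, 15.9 and 25.3 CPM in diet libraries and 426, 426 and 448 CPM in control libraries. Bmp6, which tells hepatocytes to make the iron hormone hepcidin, had 1.99, 1.34 and 3.47 CPM in diet libraries and 96.3, 58.3 and 66 CPM in control libraries. Coagulation factor F8 changed by -4.33 ± 0.22 on the log2 scale, the tight junction gene Cldn5 by -4.32 ± 0.25, and the chemokine-scavenging receptor Ackr4 by -4.78 ± 0.42. The largest fall by the naming rule was that of Kcnj15, a potassium channel, with 0.777, 0.684 and 1.15 CPM in diet libraries and 22.7, 33.5 and 29.4 CPM in control libraries (-5.04 ± 0.33). Of 28 genes of VEGF, Notch and angiocrine signalling 17 fell (median -1.88), among them the co-receptors Nrp1 (-3.80 ± 0.19) and Nrp2 (-3.79 ± 0.21). Of 32 genes of TGF-beta and BMP signalling 13 fell and 6 rose. Eng, an endothelial co-receptor of that family, changed by -3.73 ± 0.23 and Ltbp4, which anchors latent TGF-beta, by -4.05 ± 0.22. None of these named genes was called different at ZT18 from the other times.

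Matrix genes were lower too. In the list of 30 collagen and matrix genes 16 fell and 2 rose, with a median log2 change of -1.47. Sparc, a collagen-binding protein, had 313, 240 and 344 CPM in diet libraries and 1920, 1770 and 1760 CPM in control libraries, without overlap. The basement membrane genes Hspg2 and Lama4 changed by -3.61 ± 0.25 and -3.45 ± 0.24, and the proteoglycan Bgn by -3.20 ± 0.23. Of 30 genes of matrix turnover 10 fell and 3 rose; Timp3, an inhibitor of matrix proteases, had 82.8, 69.4 and 82.8 CPM in diet libraries and 1100, 1220 and 1100 CPM in control libraries. The fibrillar collagens moved less. Col1a1 had 8.14, 8.03 and 6.15 CPM in diet libraries and 25.1, 13.2 and 13.4 CPM in control libraries (-1.21 ± 0.42, edgeR adjusted p = 0.0332), and Col3a1 had 48.1, 25.2 and 55.7 CPM in diet libraries and 178, 101 and 115 CPM in control libraries (-1.61 ± 0.52, edgeR adjusted p = 0.0213). Replicate 1 of control was the highest library for both. Neither gene was called without that replicate; Col1a1 also lost its call without any 1 of the diet libraries (edgeR adjusted p up to 0.178 in all), and Col3a1 without replicate 2 of diet (0.0986). Of 19 activated stellate cell and fibroblast genes 2 rose and 5 fell. Without that replicate 1 rose and 2 fell, and without replicate 3 of diet 1 rose and 3 fell. Col6a3 and Col15a1, the 2 collagens that rose, were not called without replicate 1 of control, nor without replicate 3 of diet. Acta2, the smooth muscle actin of activated stellate cells, had 7.8, 4.87 and 7.71 CPM in diet libraries and 4.33, 4.84 and 6.19 CPM in control libraries, with overlap, and the change of 0.41 ± 0.47 was not called. Spp1, which encodes osteopontin, had 1910, 2680 and 2990 CPM in diet libraries and 421, 525 and 495 CPM in control libraries. It made up 90.6% to 94.4% of the summed CPM of the activated list under the diet, and it is also a marker of bile duct cells and macrophages.

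Of the 20 stellate markers 4 rose and 3 fell, beside 15.3% and 15.5% of all genes tested, so the list's share of calls is near the background. Ngfr, the low-affinity nerve growth factor receptor, had 1.38, 1.87 and 1.08 CPM in diet libraries and no count in any control library, which makes it at least 39.9-fold higher when control is set to a floor of 3 counts over the group. Rgs5, a pericyte gene, had 78.3, 120 and 102 CPM in diet libraries and 10.6, 7.5 and 4.45 CPM in control libraries. Cygb, a globin of quiescent stellate cells, had 5.94, 7.71 and 2.36 CPM in diet libraries and 1.42, 1.67 and 0.581 CPM in control libraries. All 3 diet libraries lay above control for these genes. The fourth that rose was Colec11, and Ecm1 was among those that fell (-2.84 ± 0.27). Portal fibroblast and mesothelial genes fell in 12 of 18, with 9 called without replicate 1 of control. Pi16, a marker of adventitial fibroblasts, had 23.2, 8.84 and 20.4 CPM in diet libraries and 156, 96.3 and 118 CPM in control libraries, and the mesothelial gene Upk3b had 1.01, 0.395 and 0.174 CPM in diet libraries and 13.9, 7.46 and 9.58 CPM in control libraries.

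Genes of myeloid cells were higher. Of 28 markers of Kupffer cells and macrophages 23 rose and 2 fell, with a median log2 change of 2.40, and of 24 markers of neutrophils and dendritic cells 19 rose and 2 fell (3.78). Mmp12, macrophage elastase (chromosome 9, 7344381 to 7369499), had the largest rise by the naming rule, with 129, 149 and 147 CPM in diet libraries and 0.125, 0.619 and 0.308 CPM in control libraries (8.61 ± 0.68). Trem2, a lipid receptor of macrophages in steatotic liver, had 17.9, 31.2 and 29.8 CPM in diet libraries and 1.54, 0.109 and 0.821 CPM in control libraries. Cx3cr1, the fractalkine receptor, had 34.8, 65.2 and 51.5 CPM in diet libraries and 0.625, 1.42 and 2.29 CPM in control libraries. The 3 diet libraries agree within 2-fold for these genes, and no control library reached 2.3 CPM in any of them. These genes, and Il1rn, Tlr13 and Slamf8 below, were named among the largest changes. That set is limited to genes whose groups do not overlap, so their separation is no added support. Il1rn, which encodes the interleukin-1 receptor antagonist, changed by 5.58 ± 0.53, Tlr13, a sensor of bacterial ribosomal RNA, by 4.93 ± 0.77, and Slamf8, a surface protein of myeloid cells, by 4.75 ± 0.57. The 2 macrophage markers that fell were Mertk, a receptor for dying cells (-3.58 ± 0.24), and Cd163. Antigen presentation followed, with 14 of 18 genes higher (median 1.84). The MHC class II gene H2-Ab1 had 3360, 3680 and 4400 CPM in diet libraries and 288, 245 and 265 CPM in control libraries, and the invariant chain Cd74 changed by 3.36 ± 0.19. Itgax, the integrin CD11c of dendritic cells, changed by 4.12 ± 0.24 and Flt3, the receptor dendritic cells need to develop, by 4.03 ± 0.32.

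Lymphocyte genes were also higher, in 15 of 28 T and NK cell markers (median 0.96) and 14 of 18 B and plasma cell markers (2.14). Cd8b1, a chain of the CD8 co-receptor, had 123, 196 and 177 CPM in diet libraries and 14.2, 12.5 and 15.6 CPM in control libraries. Ighm, the heavy chain of IgM, had 1690, 1840 and 1630 CPM in diet libraries and 509, 325 and 298 CPM in control libraries. The cytokine Il17a had 77.8, 47.6 and 145 CPM in diet libraries and 2.04, 0.546 and 2.57 CPM in control libraries. The groups did not overlap in Cd8b1 and Ighm. Il17a was named among the largest changes, a set limited to genes whose groups do not overlap. The antibody light chain segment Igkv3-2 changed by 5.35 ± 1.14, a value that is uncertain because such segments share reads. Of 32 chemokines and inflammatory mediators 18 rose and 6 fell. Ccl4, a chemokine of T cells and macrophages, changed by 3.09 ± 0.29, and the inflammatory cytokine Il1a and Csf1, the growth factor of macrophages, by -2.17 ± 0.22 and -2.17 ± 0.23.

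Bile duct and hepatocyte genes rose together with these. Of 20 cholangiocyte markers 17 rose (median 2.39). Mmp7, matrilysin, had 71.4, 50.1 and 109 CPM in diet libraries and 0.291, 2.29 and 0.787 CPM in control libraries, and the keratin Krt8 had 160, 193 and 282 CPM in diet libraries and 34.3, 36.8 and 31.4 CPM in control libraries. Of 30 hepatocyte markers 15 rose and 1 fell (1.32); Ahsg, fetuin A, had 215, 235 and 346 CPM in diet libraries and 30.4, 31.3 and 25.4 CPM in control libraries. The summed hepatocyte list was 2257 to 2657 CPM in diet libraries and 707 to 952 CPM in control libraries. Whether RNA of other cells entered the samples was not tested.

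Metabolic and growth lists were mixed. Over all genes tested 15.3% were higher and 15.5% lower, and counts near those shares set no list apart. Of 24 cholesterol genes 9 rose and 1 fell, and Sqle, squalene epoxidase, had 29.1, 39.1 and 40.2 CPM in diet libraries and 7.04, 8.34 and 10.8 CPM in control libraries. Thrsp, a lipogenic gene, had 5.81, 2.63 and 1.49 CPM in diet libraries and 74.9, 64 and 58.4 CPM in control libraries. Hk2, hexokinase 2, had 13.8, 17.9 and 16.2 CPM in diet libraries and 3, 3.71 and 3.28 CPM in control libraries. Each of these 3 genes parted the groups. Of 28 ribosomal protein genes 24 rose, but slightly, with a median of 0.59, and of 28 cell cycle genes 16 rose and 1 fell (0.79; Cdt1 1.23 ± 0.21). Among p53 targets, 6 rose and 7 fell of 20; Pmaip1, which encodes the death factor NOXA, had 292, 293 and 385 CPM in diet libraries and 21.9, 29.8 and 21.9 CPM in control libraries. Of 18 YAP and TAZ genes 8 fell and 4 rose (Wwtr1, TAZ itself, -2.30 ± 0.19). Heat shock genes gave 7 higher and 4 lower of 26, unfolded protein response genes 6 and 5 of 25, glucocorticoid-induced genes 5 and 8 of 20, and hypoxia and glycolysis genes 9 and 7 of 22. Fatty acid oxidation genes gave 8 higher and 4 lower of 24, and fatty acid synthesis genes 2 and 5 of 20. For synthesis, the number higher was 3 without replicate 1 of control and 1 without replicate 3 of diet.

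Genes of the adrenal cortex, a gland that lies close to the liver, were uneven between libraries. Their summed level was 473, 150 and 152 CPM in diet ZT18 and 592, 1140 and 1159 CPM in control ZT18, against 106 to 156 CPM in the other diet libraries and 274 to 766 CPM in the other control libraries. Of 13 genes tested 1 was called at ZT18, the lipoprotein receptor Scarb1, which the liver also expresses and which had 118, 99.1 and 124 CPM in diet ZT18 and 289, 348 and 320 CPM in control ZT18. Cyp11b1, the adrenal enzyme that makes corticosterone, had 18.2, 0.921 and 0.104 CPM in diet ZT18 and 20.2, 64.8 and 66.3 CPM in control ZT18, against 0 to 0.378 CPM in the other diet libraries and 0 to 24.1 CPM in the other control libraries. Replicate 1 of diet ZT18, all 3 control libraries of ZT18 and replicate 2 of control ZT12 were the libraries in which Cyp11b1 was highest. Star, the carrier of cholesterol into mitochondria, had 73.2, 6.42 and 1.11 CPM in diet ZT18 and 51, 131 and 166 CPM in control ZT18, with overlap. Neither change was called (edgeR adjusted p = 0.0705 for Cyp11b1 and 0.0854 for Star). By the fitted changes, which for genes near 0 depend on the prior count, the median member lay 4.44 log2 above the other diet libraries in diet ZT18 and 3.74 above the other control libraries in control ZT18. The diet value is a group mean that does not hold for each library. The sum was raised in replicate 1 (473 CPM), while replicates 2 and 3 lay within the range of the other diet libraries. The part of such tissue in other results was not tested.

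The effect of diet at ZT18 was then tested against the mean of its effects at the other 3 times. It differed in 198 genes (0.884% of those tested), more positive at ZT18 in 107 (0.477%) and more negative in 91 (0.406%). The same contrast gave 108 genes for ZT0 (0.482%), 81 for ZT6 (0.361%) and 2 for ZT12 (0.00892%). Both counts changed when single libraries were left out. Without replicate 3 of diet ZT18 the only call left was Tmem221, a membrane protein gene. Leaving out replicate 1 or 2 of diet ZT18 left 56 or 26 more positive and 31 or 13 more negative genes, and leaving out replicate 1, 2 or 3 of control ZT18 left 42, 31 or 20 and 24, 20 or 16. Without replicate 2 of control ZT0, the library nearest to diet, there were 492 and 638. Every gene described as differing in the following paragraphs was called with all 22 libraries, and all but Tmem221 missed the threshold without replicate 3 of diet ZT18. Such a miss can be narrow, as for Cblb (edgeR adjusted p = 0.0699) and Lair1 (0.0723), and how many were narrow was not counted.

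**Figure D3:**
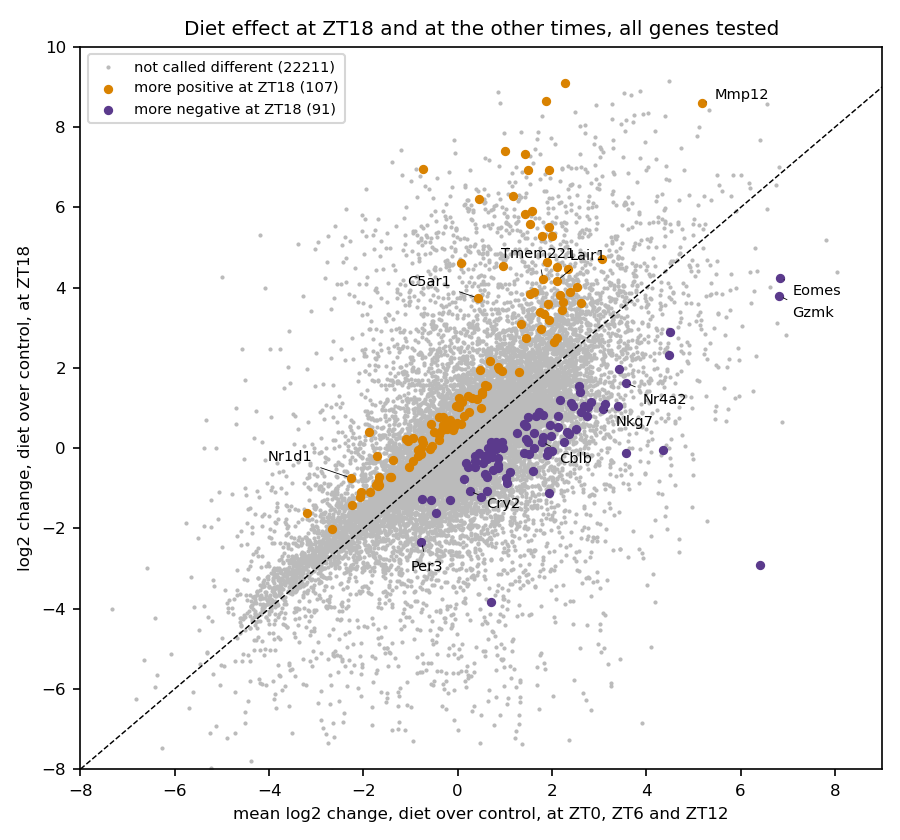
Log2 change, diet over control, at ZT18 (vertical) against its mean at ZT0, ZT6 and ZT12 (horizontal); each point is 1 of 22409 genes and the dashed line marks equal effects. Orange marks the 107 genes with a more positive effect at ZT18 and purple the 91 with a more negative one; Nr1d1 lies above the line and Per3 below it.

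The mean effect over the other 3 times was itself called in 10759 genes (48%). Among the 107 genes, 50 were higher under the diet both at ZT18 and over the other times, 18 were higher at ZT18 with no call over the others, and 7 were higher at ZT18 but lower over the others. Of the remaining genes, 17 were lower over the other times with no call at ZT18, and 15 were lower in both. Among the 91, 52 were higher over the other times with no call at ZT18, 24 were higher in both, and 6 were lower at ZT18 but higher over the others. In 139 of the 198 genes (70.2%) the diet group of ZT18 lay nearer to the other diet groups than the control group of ZT18 to the other controls. Against the other diet groups, 410 genes were called in diet ZT18 (1.83%), 46 of the 198 among them. Against the other controls, 1311 were called in control ZT18 (5.85%), 136 of the 198 among them. These counts describe genes chosen by a contrast that uses the same libraries, so nothing is tested with them.

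Among single genes with a more positive effect at ZT18, Tmem221 had the smallest p-value. Tmem221 (chromosome 8, 71554238 to 71558871) had 40.3, 44.4 and 56.7 CPM in diet ZT18 and 1.79, 2.62 and 3.18 CPM in control ZT18, against 32.9 to 50.4 CPM in the other diet libraries and 5.83 to 27.9 CPM in the other control libraries. The difference of effects was 2.40 ± 0.31 log2 (edgeR adjusted p = 0.00518), and it was called under all 32 alternatives. C5ar1, the receptor for complement C5a, had 7.5, 24.6 and 25.4 CPM in diet ZT18 and 1.87, 1.24 and 1.2 CPM in control ZT18, against 5.79 to 14.8 CPM in the other diet libraries and 2.92 to 20.3 CPM in the other control libraries. Its diet libraries did not overlap control at ZT18, with replicate 1 the lowest, and its effect differed by 3.30 ± 0.50 (edgeR adjusted p = 0.0148). Lair1, an inhibitory collagen receptor of leukocytes, had 156, 119 and 195 CPM in diet ZT18 and 7.12, 8.96 and 9.88 CPM in control ZT18; Csf2ra, a chain of the GM-CSF receptor, had 40.5, 50.7 and 44 CPM in diet ZT18 and 1.92, 4.62 and 3.08 CPM in control ZT18. For Tmem221, C5ar1 and Lair1 all 3 control libraries of ZT18 lay below every other control library. The effects of Jaml, a leukocyte adhesion molecule, Dapk1, a death-associated kinase, and Slc29a3, a lysosomal nucleoside transporter, differed by 1.47 ± 0.23, 1.49 ± 0.24 and 1.17 ± 0.22. Those of Mmp12, the lysozyme Lyz2 and Plaur, the urokinase receptor, differed by 3.43 ± 0.74, 1.65 ± 0.36 and 1.29 ± 0.28. The Mmp12 call was lost under 12 of 32 alternatives, among them leaving out any 1 library of ZT18 (edgeR adjusted p up to 0.411). Mmp12 had only 29 counts in the control libraries of ZT18 together. The effects of Clec7a, the beta-glucan receptor, and Ctss, cathepsin S, differed by 1.66 ± 0.35 and 1.21 ± 0.28. This last pair was named after the values were seen.

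Of the 28 Kupffer cell and macrophage markers, only Mmp12 and Lyz2 were called in that test, 25 had a more positive effect at ZT18, and the median difference was 1.15 log2, beside 0.028 over all genes. Over all 22409 genes the effect was more positive at ZT18 in 11648 and more negative in 10761. The members of a list were measured in the same libraries, so their signs are not independent counts. Of the 24 neutrophil and dendritic cell markers none was called by edgeR, 7 had an unadjusted p under 0.05 and DESeq2 called 5, with a median difference of 0.75. The summed macrophage list was 6382 to 8699 CPM in diet ZT18 and 1858 to 1899 CPM in control ZT18, against 4095 to 10665 CPM in the other diet libraries and 1876 to 5128 CPM in the other control libraries. The control sums at ZT18 thus lay close to the lowest of the other controls, 1876 CPM in replicate 2 of control ZT12. The part of these marker levels in the genes above was not tested. Among the other controls, 5128 CPM belonged to replicate 2 of control ZT6, and the next highest was 2904 CPM in replicate 1 of control ZT0. That ZT6 library was also the highest control for C5ar1 (20.3 CPM) and Lyz2 (500 CPM). Without it the test called 42 more positive and 39 more negative genes.

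**Figure D4:**
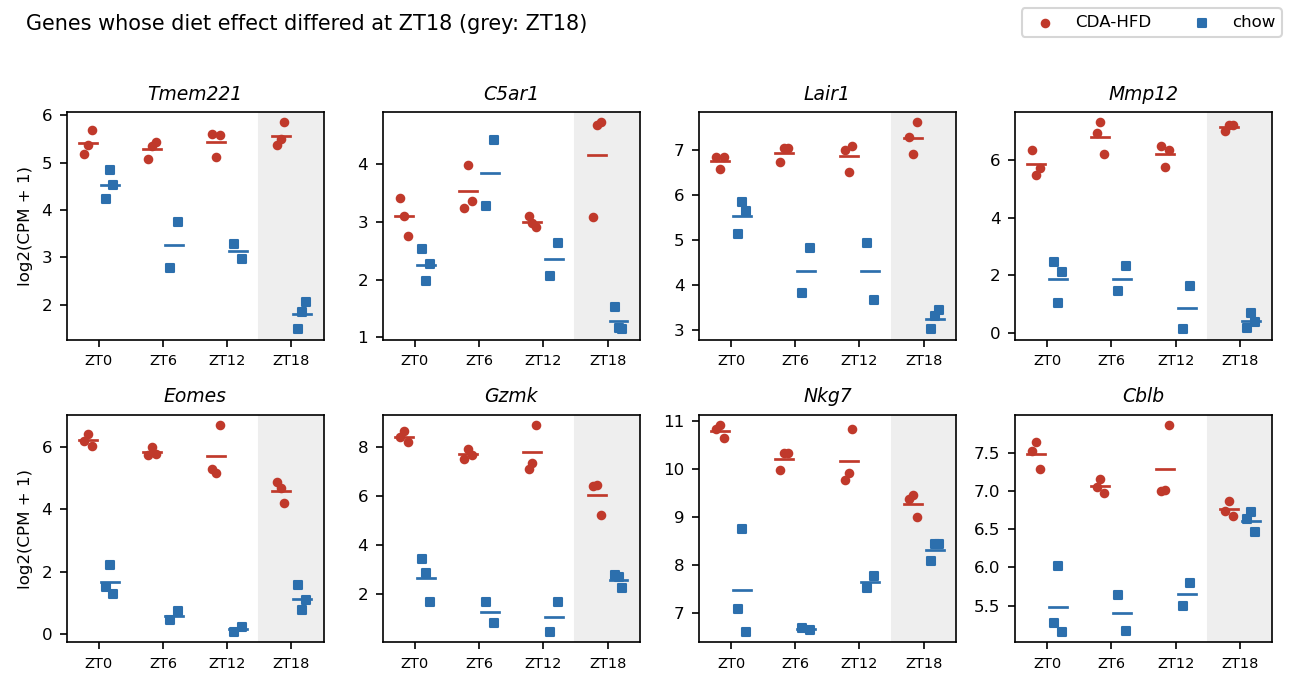
Log2(CPM + 1) in each of the 22 libraries of 8 genes whose diet effect differed at ZT18; CDA-HFD is red and left of chow in blue, each point is 1 library, lines are group means and ZT18 is shaded. The upper 4 genes had the lowest mean control values at ZT18, and Eomes, Gzmk and Nkg7 had the lowest mean diet values there.

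The diet effect at ZT18 was more negative for 26 of the 28 T and NK cell markers, beside 10761 of all 22409 genes. The median difference of these markers was -1.26 log2, and 5 were called. Some other lists were as one-sided in sign, with smaller medians. Of 28 ribosomal protein genes 26 were more negative (median difference -0.141). More positive were 26 of 28 endothelial markers (0.344) and 17 of 18 YAP and TAZ genes (0.317). Gzmk, a granzyme of memory T cells, had 85.2, 87.6 and 36.7 CPM in diet ZT18 and 5.87, 5.5 and 3.76 CPM in control ZT18, against 138 to 480 CPM in the other diet libraries and 0.363 to 9.82 CPM in the other control libraries; the effect differed by -3.03 ± 0.63. Nkg7, a cytotoxic granule protein, had 664, 702 and 515 CPM in diet ZT18 and 269, 344 and 344 CPM in control ZT18, against 882 to 1940 CPM in the other diet libraries and 95.8 to 427 CPM in the other control libraries (-2.10 ± 0.43). In both genes the diet libraries of ZT18 lay below every other diet library and above the controls of ZT18, although the Nkg7 call at ZT18 was lost without any 1 of the 6 libraries (edgeR adjusted p up to 0.144). Eomes, a transcription factor of cytotoxic cells, differed by -2.61 ± 0.56, the pore-forming perforin Prf1 by -1.44 ± 0.32, and the T cell receptor chain Cd3e by -2.00 ± 0.45. Cd3e had 192, 147 and 139 CPM in diet ZT18 and 111, 123 and 137 CPM in control ZT18, and its change at ZT18 was not called. The chemokines Ccl3 and Ccl5 differed by -1.62 ± 0.32 and -2.16 ± 0.50. Cblb, a ubiquitin ligase that restrains T cells, had 106, 116 and 101 CPM in diet ZT18 and 97.9, 105 and 87.4 CPM in control ZT18, which overlap, against 125 to 231 CPM in the other diet libraries and 34.6 to 63.5 CPM in the other control libraries (-1.63 ± 0.26, edgeR adjusted p = 0.0181). Cd27, a costimulatory receptor, Grap2, a T cell adaptor, and Ptger2, a prostaglandin E2 receptor, differed by -1.66 ± 0.30, -1.74 ± 0.30 and -1.69 ± 0.31. The summed T and NK cell list was 5330 to 6755 CPM in diet ZT18 and 2757 to 3262 CPM in control ZT18. It was 10342 to 11277 CPM in diet and 940 to 3857 CPM in control at ZT0, 7166 to 8509 CPM in diet and 908 to 1083 CPM in control at ZT6, and 6272 to 10672 CPM in diet and 1798 to 1942 CPM in control at ZT12. The part of these marker levels in the genes named was not tested. Without replicate 2 of control ZT0 and replicate 1 of control ZT18 together, 17 of the 28 were called, and without replicate 1 of control ZT18 alone, 1.

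Immediate early genes, which cells switch on within minutes of a stimulus, showed the same sign in 25 of 26, beside 10761 of all 22409 genes. Their median difference was -0.54 log2, and 5 were called. Without replicate 1 of control ZT18, 1 was called, and without that library and replicate 2 of control ZT0, 13. At ZT18 itself 11 of the 26 were higher under the diet. Nr4a1, an orphan nuclear receptor, had 1670, 1480 and 1300 CPM in diet ZT18 and 766, 711 and 682 CPM in control ZT18, against 487 to 1070 CPM in the other diet libraries and 66.8 to 255 CPM in the other control libraries. Nr4a3, its relative, had 320, 206 and 222 CPM in diet ZT18 and 317, 234 and 234 CPM in control ZT18, against 143 to 256 CPM in the other diet libraries and 24.2 to 98.9 CPM in the other control libraries. Both genes were higher in every control library of ZT18 than in any other control library, and Nr4a1 was also higher in every diet library of ZT18 than in any other diet library. The effects differed by -1.40 ± 0.30 for Nr4a1, -1.94 ± 0.35 for Nr4a2, -1.99 ± 0.39 for Nr4a3, -1.70 ± 0.34 for the zinc finger factor Egr3 and -1.11 ± 0.24 for the AP-1 subunit Fosl2. Creb1, a factor that drives such genes, had 62.4, 69.9 and 56.5 CPM in diet ZT18 and 64.9, 59.9 and 56.9 CPM in control ZT18, with overlap, and differed by -0.74 ± 0.14. Nr4a1, Egr3, Fosl2, Cd3e and Prf1 were named after their values were seen.

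Of 28 interferon-stimulated genes, 25 had a more positive effect at ZT18 (median difference 0.65), beside 11648 of all 22409 genes. Among them Irf7, Oas1a and Bst2 were called. Irf7, the master factor of the type I response, had 168, 236 and 176 CPM in diet ZT18 and 47, 49.3 and 50.2 CPM in control ZT18, against 85.4 to 205 CPM in the other diet libraries and 69.3 to 95 CPM in the other control libraries (1.11 ± 0.22). Oas1a, a sensor of double-stranded RNA, had 27.9, 44.2 and 35.9 CPM in diet ZT18 and 27.5, 24.2 and 19.4 CPM in control ZT18 (1.16 ± 0.24), where its own call was lost without any 1 of 4 libraries (edgeR adjusted p up to 0.166), and Bst2, tetherin, differed by 0.65 ± 0.15. For Irf7 all control libraries of ZT18 lay below all other controls. At ZT18 itself 8 of the 28 rose and 5 fell, with a median of 0.05, and over the other times the median was -0.40. Irf7 changed by 1.98 log2 at ZT18 and 0.88 over the other times, and Oas1a by 0.60 and -0.56. Bst2 changed by -0.31, not called, and -0.96.

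Of 13 mitochondrially encoded genes 8 passed the filter on counts, and all 8 were higher under the diet at ZT18 (median 1.54). Over the other times their median was 0.69. The effect was called more positive at ZT18 in 3 of the 8, beside 0.477% of all genes tested. mt-Cytb, a subunit of complex III, had 9870, 12600 and 6600 CPM in diet ZT18 and 3230, 3310 and 3310 CPM in control ZT18, against 1770 to 5530 CPM in the other diet libraries and 1660 to 2360 CPM in the other control libraries (0.98 ± 0.22). Both groups lay above all other libraries of their diet, and replicate 3 was the lowest of the diet group. mt-Nd4 and mt-Nd1, of complex I, differed by 0.93 ± 0.20 and 0.90 ± 0.21. Alas2, the heme synthesis enzyme of red cell precursors, had 99.7, 166 and 159 CPM in diet ZT18 and 56.3, 65.9 and 55.1 CPM in control ZT18 (1.23 ± 0.26); the summed erythroid list was 2744 to 4794 CPM in diet ZT18 and 1638 to 2133 CPM in control ZT18, against 1398 to 3635 CPM in the other diet libraries and 1241 to 3301 CPM in the other control libraries. The hepatocyte genes Hp, haptoglobin, and Serpina3k, a protease inhibitor, differed by 1.77 ± 0.40 and 1.51 ± 0.33. Hp was higher under the diet, by 3.11 log2 at ZT18 and 1.34 over the other times. Serpina3k did not rise, with changes of -0.20 at ZT18, not called, and -1.71 over the other times. Cd36, a fatty acid and scavenger receptor, had 367, 366 and 443 CPM in diet ZT18 and 681, 631 and 637 CPM in control ZT18, against 200 to 463 CPM in the other diet libraries and 797 to 1030 CPM in the other control libraries (0.94 ± 0.16). Its fall under the diet was smaller at ZT18, where each control library lay below all other controls. Pfkfb3, an activator of glycolysis, and Srebf2, the driver of cholesterol synthesis, differed by 0.70 ± 0.15 and -0.65 ± 0.15. Ifi207, of the interferon-inducible p200 family, had 60.1, 62.8 and 69.4 CPM in diet ZT18 and 51.3, 61.2 and 58.8 CPM in control ZT18 (1.23 ± 0.18).

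Nr1d1, Per1, Per3 and Cry2 were the core clock genes whose effect differed at ZT18. At ZT18, 4 of 17 core clock genes were higher and 8 lower under the diet, and of 18 clock output genes 4 were higher and 6 lower. Per3, a period gene (chromosome 4, 151003652 to 151044665, GRCm38, minus strand), had 6.21, 6.79 and 6.71 CPM in diet ZT18 and 30.4, 36.2 and 32.4 CPM in control ZT18. The groups did not overlap, and Per3 fell by 2.33 ± 0.22 on the log2 scale, against effects of 0.21 at ZT0, -0.83 at ZT6 and -1.70 at ZT12. The effect at ZT18 differed from their mean by -1.56 ± 0.26 (edgeR adjusted p = 0.0181). Per1, the period gene that glucocorticoids and cAMP also induce (chromosome 11, 69095217 to 69109960), moved the opposite way, with 129, 101 and 100 CPM in diet ZT18 and 72.5, 81.2 and 63.5 CPM in control ZT18. Under the diet Per1 lay at 93.3 to 111 CPM at the other times, while control libraries spanned 23 to 72.1 CPM, so its rise was smaller at ZT18 (-0.79 ± 0.18, edgeR adjusted p = 0.0435). Per2 had 10.1, 7.39 and 5.32 CPM in diet ZT18 and 13.7, 30 and 28.5 CPM in control ZT18, without overlap, and its effect was not called different from the other times.

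Both cryptochromes, the partners of the period proteins, were lower at ZT18. Cry1 had 46.7, 33.9 and 54.2 CPM in diet ZT18 and 96.5, 66.5 and 68.7 CPM in control ZT18, and Cry2 had 13.4, 19.1 and 24.7 CPM in diet ZT18 and 40.7, 49.9 and 29.9 CPM in control ZT18. Neither overlapped. Cry2 differed from the other times by -1.33 ± 0.28, with effects of 1.38, 0.21 and -0.83 at ZT0, ZT6 and ZT12, and Cry1 by -1.04 ± 0.25, which was not called (edgeR adjusted p = 0.0532). Clock itself had 16.1, 18.2 and 13.2 CPM in diet ZT18 and 32.4, 32.4 and 27.5 CPM in control ZT18, and Arntl had 31.7, 28.1 and 28.2 CPM in diet ZT18 and 15.7, 25.6 and 20.8 CPM in control ZT18; the change in Arntl was not called although its groups did not overlap. Wee1, a kinase that holds back mitosis and a known clock target, differed by -1.34 ± 0.27.

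Nr1d1 had its smallest diet effects at ZT18 and ZT0. It had 18.5, 16.7 and 17.9 CPM in diet ZT18 and 25.8, 33.5 and 29.7 CPM in control ZT18. Control libraries held 413 and 393 CPM at ZT6 and 271 and 253 CPM at ZT12, while diet libraries ranged from 23.7 to 55.1 CPM at those times. The effect was -0.75 at ZT18 and -0.76, -3.10 and -2.92 at ZT0, ZT6 and ZT12, and ZT18 differed by 1.51 ± 0.26 (edgeR adjusted p = 0.0181). Nr1d2 had 27.7, 23.2 and 22.3 CPM in diet ZT18 and 33.6, 47.2 and 49.6 CPM in control ZT18, and its effect was 0.01 ± 0.19 from the mean of the other times, not called. Bhlhe40, a repressor at E-boxes, had 520, 580 and 475 CPM in diet ZT18 and 121, 125 and 145 CPM in control ZT18. Some calls at ZT18 were lost when 1 library was left out: that of Nr1d1 without control replicate 2 (edgeR adjusted p = 0.054), those of Cry1 without control replicate 1 or diet replicate 2 (up to 0.0557), that of Rora without diet replicate 1 (0.0684), and those of Wee1 (up to 0.143) and Leo1 (up to 0.158) under several.

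The factors that act at the D-box differed in direction. The activators Dbp and Tef were lower at ZT18, with 5.54, 4.37 and 4.79 CPM in diet libraries and 12.8, 14.1 and 10.4 CPM in control libraries for Dbp, and 9.15, 13.8 and 7.19 CPM in diet libraries and 36.1, 34.7 and 37.4 CPM in control libraries for Tef. The repressor Nfil3 was higher, with 82.6, 86.6 and 97.3 CPM in diet libraries and 11.2, 11.7 and 14.8 CPM in control libraries. None of these groups overlapped, and the log2 changes were -1.34 ± 0.22, -1.84 ± 0.28 and 2.82 ± 0.31. Hlf, at 0.912, 1.29 and 1.63 CPM in diet libraries and 2.87, 2.04 and 2.19 CPM in control libraries, was not called. None of the 4 was called different from the other times.

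**Figure D5:**
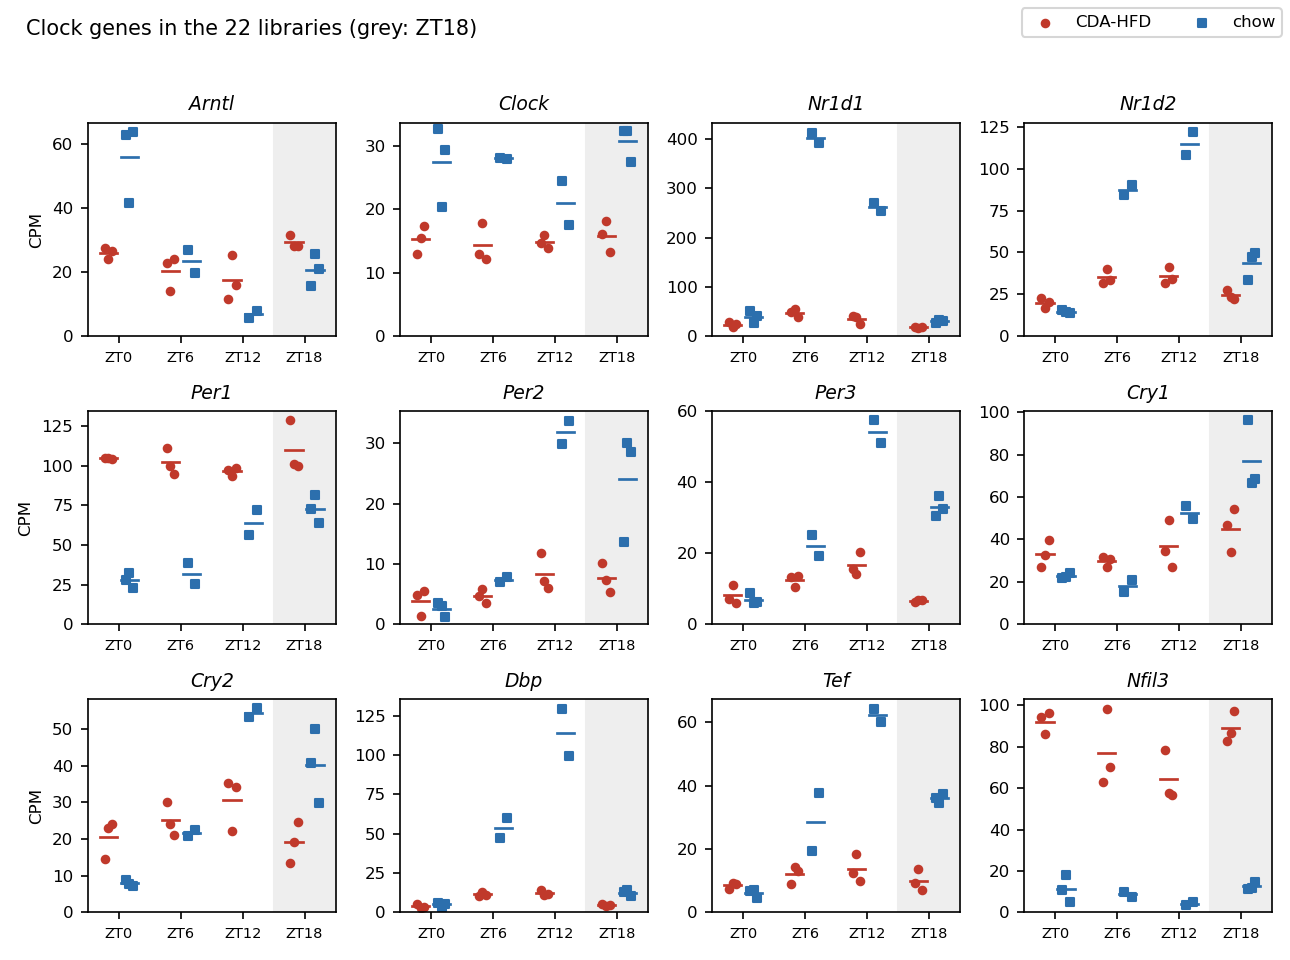
CPM of 12 clock genes in each of the 22 libraries by zeitgeber time; CDA-HFD is red and left of chow in blue, lines are group means and ZT18 is shaded. Nr1d1 in chow libraries stood at 253 to 413 CPM at ZT6 and ZT12 and at 25.8 to 33.5 CPM at ZT18, and Per3 at ZT18 was at 6.21 to 6.79 CPM under the diet and 30.4 to 36.2 CPM on chow.

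The 250 bases before the RefSeq start sites of Per3 and Per1 (GRCm38.p6) are shown because these period genes moved in opposite directions at ZT18 and hold matches to clock motifs. Capitals mark the D-box, searched as TTATGNAA, and the E-box, searched as CACGTG, on both strands; each is shown 5′ to 3′ in the direction of the gene. The windows are chr4:151044666-151044915, minus strand, and chr11:69098699-69098948, plus strand.
Per3: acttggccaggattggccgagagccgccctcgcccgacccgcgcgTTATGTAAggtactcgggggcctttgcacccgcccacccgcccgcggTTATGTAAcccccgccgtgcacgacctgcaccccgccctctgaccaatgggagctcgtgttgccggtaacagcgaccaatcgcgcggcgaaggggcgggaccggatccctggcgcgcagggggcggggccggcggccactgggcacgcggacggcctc
Per1: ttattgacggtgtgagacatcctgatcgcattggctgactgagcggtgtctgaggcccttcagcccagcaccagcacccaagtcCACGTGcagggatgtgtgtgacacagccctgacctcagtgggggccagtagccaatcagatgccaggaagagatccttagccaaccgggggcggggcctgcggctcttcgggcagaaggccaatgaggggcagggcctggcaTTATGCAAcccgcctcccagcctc
The Per3 window held 2 D-box matches, which begin at -205 and -158 from the start site, and no E-box match. The Per1 window held 1 E-box match at -166 and 1 D-box match at -24, and no matches overlapped. RefSeq lists another Per1 start site, whose window held neither, and the GENCODE gene model starts farther upstream. Of 32817 windows of that length, 6.02% held the E-box letters and 3.07% the D-box letters, and 0.128% held the D-box at least 2 times. Of 29 genes of the clock lists with a window, 9 held an E-box match and 3 a D-box match, the D-box in Noct, Per1 and Per3. A match describes letters only, and no binding was measured.

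Tested against each other time singly, the effect at ZT18 differed in 218 genes from ZT0 (0.973%), 206 from ZT6 (0.919%) and 2 from ZT12 (0.00892%). No gene was called in all 3 tests with 1 sign by edgeR, although 548 had an unadjusted p under 0.05 in all 3 with 1 sign, and DESeq2 called 58. Without replicate 2 of control ZT0 edgeR called 84. In 27 genes the tests against ZT0 and ZT6 were both called and the sign against ZT12 was the same, among them Per3, Cry1, Cblb, Cd27, Mllt3, Ptger2, Tmem221, C5ar1, Csf2ra, Dapk1, Ifi207 and Ctss. The 2 genes that differed from ZT12 were Nr1d1, by 2.17 ± 0.32 (edgeR adjusted p = 0.0348), and the antibody segment Igkv4-72, by 5.04 ± 0.79 (edgeR adjusted p = 0.0407), named because it was called. Igkv4-72 had 12.2, 15.7 and 9.66 CPM in diet ZT18 and 0.208, 0.255 and 0.342 CPM in control ZT18, and it may share reads with similar segments.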

How the data were processed

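RNA of 22 liver cell samples (12 diet, 10 control) was sequenced. Per the submitters' processing notes, STAR 2.7.9a, the mouse genome GRCm38 (mm10), HTSeq and DESeq2 were used; the annotation and the strand setting are not given in those notes, so a gene's reads may include those of overlapping or antisense partners. The deposited table holds raw read counts per gene. The deposited normalised table equals these counts over 1 factor per library (100% of values within 0.001 reads) and was not used.

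Groups were taken from sample titles. Genes were kept by filterByExpr over 8 groups (22409 of 55367), scaled by TMM, and fitted with 8 group means in edgeR 4.0.16 (limma 3.58.1, R 4.3.3) by the quasi-likelihood test with Benjamini-Hochberg adjustment; DESeq2 1.42.0 was an alternative. The SE is the absolute log2 change over the square root of F. CPM uses TMM-scaled library sizes, and log2 CPM a prior count of 2. The procedure was checked on simulated data. Replicates at ZT18 differed beyond sampling noise in every pair. Of the symbols, 53292 were found in GENCODE M21, 21896 of the tested ones at 1 place; promoter windows are from RefSeq.

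The comparison and the 34 gene lists were chosen with earlier results of these data known. Genes named are the 12 largest changes in each direction at ZT18 and the 12 smallest p-values in each direction against the other times. Both sets were drawn from called genes with mean log2 CPM of at least 2, without placeholder symbols or pseudogenes. The first set also required diet and control libraries that do not overlap. Some larger changes were therefore passed over. Clock genes, up to 4 and 2 per list, and stellate anchors were named too, and the text shows those that describe each group. A further 15 were added after their values were seen: Nr4a1, Egr3, Fosl2, Cd3e, Prf1, Bst2, mt-Nd1, Igkv4-72, Star, Cyp11b1, Cyp11a1, Clec7a, Ctss, Krt18 and Alb. Alternatives were other scalings, filters, a replicate block, the 6 libraries alone, DESeq2 and libraries left out.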

Additional observations from a re-analysis of the deposited data

Results flagged for a closer look

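The effect of the diet at ZT18 differed from its mean effect at ZT0, ZT6 and ZT12 in the genes given here, by the edgeR test of the difference itself. Each value is the log2 effect at ZT18 minus that mean. The effect at ZT18 was more positive for Tmem221 by 2.40, C5ar1 by 3.30, Jaml by 1.47, Lair1 by 2.07, Csf2ra by 1.64, Dapk1 by 1.49, Slc29a3 by 1.17, Mmp12 by 3.43, Lyz2 by 1.65, Plaur by 1.29, Clec7a by 1.66, Ctss by 1.21, Irf7 by 1.11, Oas1a by 1.16, Bst2 by 0.65 and Ifi207 by 1.23. It was also more positive for Nr1d1 by 1.51, Igkv4-72 by 3.57, Cd36 by 0.94, Pim3 by 0.74, Commd9 by 0.79, Pfkfb3 by 0.70, Alas2 by 1.23, Serpina3k by 1.51, Hp by 1.77, Canx by 0.64, mt-Nd1 by 0.90, mt-Nd4 by 0.93 and mt-Cytb by 0.98. It was more negative for Gzmk by -3.03, Nkg7 by -2.10, Eomes by -2.61, Prf1 by -1.44, Cd3e by -2.00, Cblb by -1.63, Cd27 by -1.66, Grap2 by -1.74, Ptger2 by -1.69, Ccl3 by -1.62, Ccl5 by -2.16 and Nlrc5 by -1.34. It was also more negative for Per1 by -0.79, Per3 by -1.56, Cry2 by -1.33, Wee1 by -1.34, Nr4a1 by -1.40, Nr4a2 by -1.94, Nr4a3 by -1.99, Egr3 by -1.70, Fosl2 by -1.11 and Creb1 by -0.74. The remaining more negative genes were Mllt3 by -1.61, Zdhhc5 by -0.73, Abcb9 by -1.53, Chpf by -1.38, Ptpn13 by -2.06, Plod2 by -2.08 and Srebf2 by -0.65. Only Tmem221 was called without replicate 3 of diet ZT18.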

How the results depend on the processing

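Of 192 named genes called between diet and control at ZT18, 183 kept their call under all 18 alternatives, 9 lost it under at least 1 and none turned its direction. Leaving out 1 library gave 2911 to 3094 genes higher and 3030 to 3205 lower. Of 58 named genes whose effect differed from the other times, Tmem221 alone kept its call under all 32 alternatives, and none turned its direction. The counts of that test moved: 48 more positive genes (63 more negative, 43.2% positive against 54.0%) with library sizes alone, which shifted the median change of all genes at ZT18 to 0.148; 619 and 642 with no filter; 194 and 187 among genes with mean CPM from 5 upwards; and 504 and 445 by DESeq2. Without replicate 2 of control ZT0 and replicate 1 of control ZT18 together, they were 404 and 578 (41.1% positive). Alternatives chosen after seeing the data gave 258 and 434 without the ZT0 libraries (37.3%), 21 and 7 without ZT6 (75%), and 161 more positive without ZT12. Leaving out 1 library gave 1 to 492 more positive and 0 to 638 more negative. Genes called against each other time singly numbered 209 with no filter, 2 among genes from mean CPM 5, 58 by DESeq2, 72 without the pair of control libraries, and 0 to 84 with 1 library left out. The cause of these shifts was not tested, and leaving out libraries or changing the filter also alters the number of samples or genes tested.

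Replicate numbers did not pair the samples (correlations of same-numbered deviations -0.0105, -0.00736 and 0.0148). A fit with the replicate block gave 3383 genes higher and 3399 lower at ZT18, and 91 and 75 against the other times. Genes with few counts limit what depth can show.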
